A study of Mus musculus with 12 samples.

Results

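Semaphorins, ephrins, Slits and netrins are ligands that steer growing axons and vessel sprouts, and plexins, neuropilins, Eph receptors, Robo receptors and Unc5 receptors are the receptors that read them. Secreted class 3 semaphorins bind neuropilins and plexins on endothelial cells. Ephrin-B2 on arterial cells faces EphB4 on venous cells. Slits act through Robo receptors, and netrins act through Unc5 receptors and related receptors. These 10 families were examined here as 66 protein-coding genes, chosen by their symbols from the 28689 genes of the table. The annotation holds 68 such symbols, and Epha6 and Ntn3 had no row in the table. Of the 66 genes, 34 encode ligands and 32 encode receptors.

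RNA was sequenced from mouse lung endothelial cells (MLECs) that were selected with magnetic beads, first against CD31 and then against ICAM2, and grown in culture up to passage 3. The dKO libraries (6) came from VE-CAD-CreERT2+ mice with floxed Sp1 and Sp3 alleles (Sp1 fl/fl, Sp3 fl/fl), in which the VE-cadherin promoter drives a tamoxifen-inducible Cre. The CTR libraries (6) came from littermates with the same floxed alleles and no Cre. Mice of both groups were adult males given tamoxifen. Sp1 and Sp3 are zinc-finger transcription factors that bind GC boxes. The labels call the controls WT, and how many mice stand behind 1 library is not given, so a p-value below measures the spread between libraries, which may in part be technical.

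Levels are given as FPKM, which divides the fragments of a gene by its length and by the size of the library, so that genes can be set side by side. Libraries held 15522497 to 17937582 fragments on genes, as recovered from the FPKM values, and for a gene 2 kb long each fragment added 0.0279 to 0.0322 FPKM. Sp1 averaged 21.2 ± 1.77 FPKM in CTR and 10.6 ± 1.53 in dKO libraries (SD, n = 6 each), and the groups did not overlap. Sp3 averaged 27.7 ± 2.31 and 25.0 ± 1.64 FPKM, with an adjusted p of 0.0902 (limma). Neither CTR replicate 4 nor dKO replicate 3 was left out, although CTR replicate 4 had the highest sum of lung epithelial markers among all libraries (499.9 FPKM) and dKO replicate 3 the highest sum of macrophage markers (3792 FPKM).

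Of the 66 genes, 48 reached at least 1 FPKM in at least 6 of the 12 libraries and were tested with all other genes that did (12467). The text below calls a gene higher or lower at an adjusted p under 0.05 (limma, Benjamini-Hochberg over all genes tested). By this rule 30 of the 48 were called, 21 higher and 9 lower in dKO, a share of 62.5%, beside 53.1% of all genes tested. The share called higher was 20.4% of all genes tested, and 32.6% were called lower. The counts by family and by marker list below are to be read beside these shares. With a change of more than 1.5-fold as a further condition, 17 of the 48 were called (11 higher, 6 lower), beside 17.9% of all genes tested (8.92% higher, 8.98% lower). A log2 fold change beyond 1.5 in size was reached by 2 called genes, Sema3d and Sema4d, beside 1.98% of all genes tested. The groups did not overlap for 15 of the 48 (12 with all dKO libraries above, 3 below), beside 27.4% of all genes tested (11.3% above, 16.1% below). Among the 15 are Sema4d (above) and Plxna3 (below), which passed the filter through 1 group only. Their separation and its direction therefore follow from the filter and are no support for these counts. The median log2 fold change was 0.26 over the 48 genes and -0.10 over all genes tested. When libraries were scaled by median-of-ratios instead, these medians were 0.35 and -0.02, and 24 of the genes were called higher and 7 lower, while the share of higher calls among all called genes moved from 38.5% to 51.6%. Fold changes are on the log2(FPKM + 1) scale and understate the change of genes near or below 1 FPKM.

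**Figure D1:**
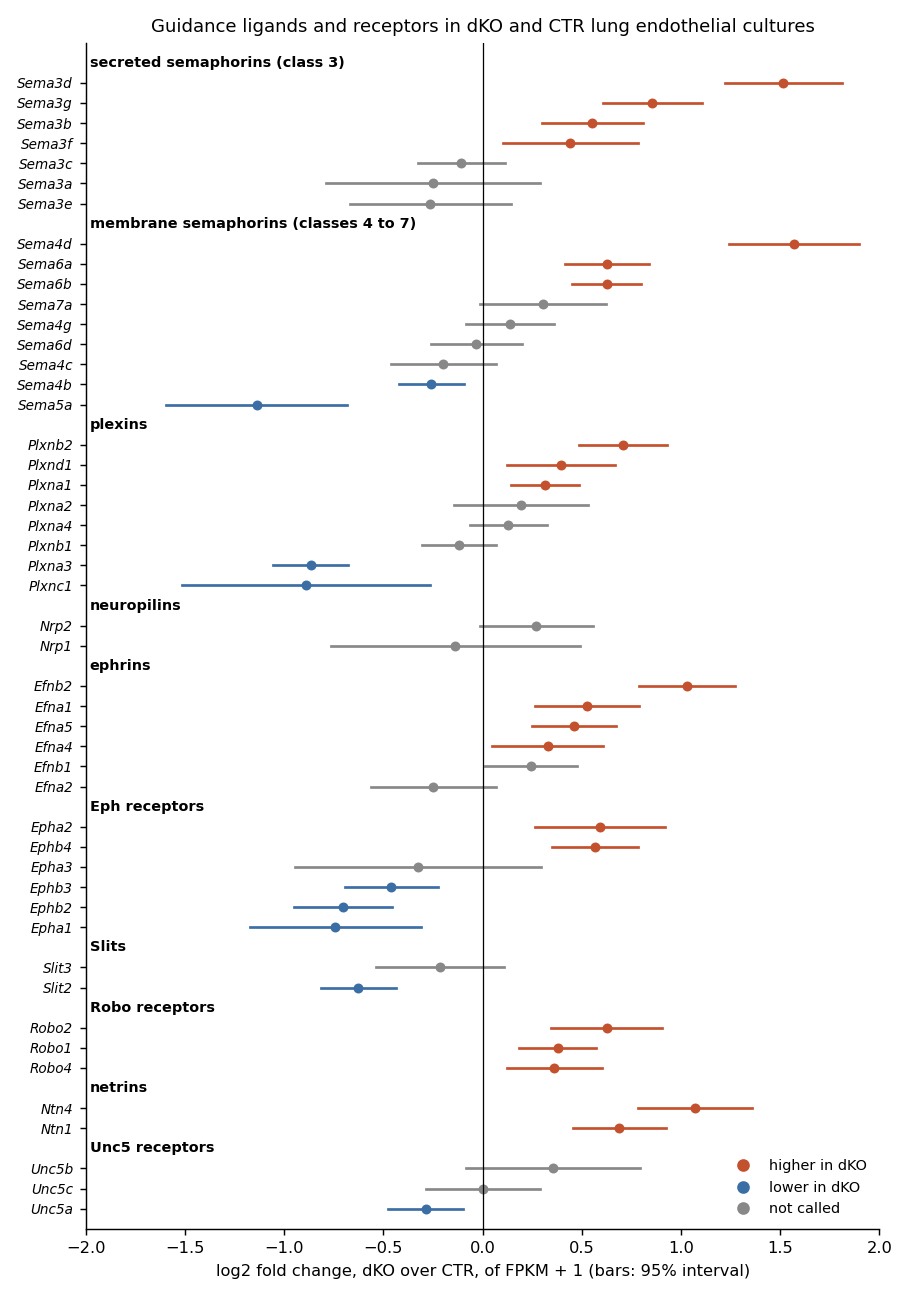
Log2 fold change (dKO over CTR, of FPKM + 1) of the 48 tested genes, grouped by family, with 95% intervals; colour marks genes called higher, called lower or not called. The ephrins, netrins and Robo receptors that were called all lie to the right of 0, whereas Eph receptors and plexins lie on both sides.

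Sp1 and Sp3 are known to bind GC boxes, so the bases before the start of these genes were examined first. In the 250 bases before the start of the canonical transcript (GRCm39), GGGCGG or its complement CCGCCC was sought on both strands. At least 1 box was found in 42 of the 66 promoters (63.6%), beside 43.2% of the 17366 promoters of protein-coding genes in the table. Among tested genes, the share was 70.8% for the guidance genes (34 of 48) and 50.6% for all 11315 protein-coding genes. A box was present for 14 of the 21 higher genes (66.7%), 8 of the 9 lower genes (88.9%) and 12 of the 18 genes not called (66.7%). Over all tested protein-coding genes, it was present in 48.3% of those called higher and 50.5% of those called lower. A match is only a match of letters and does not show that a factor binds there. The box consists of G and C only, and the GC content of these promoters was not compared with that of the other promoters. The most boxes, 5, stood before Plxna1 (higher), Plxnb1 and Sema4c (both not called).

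The following promoters are shown because these genes had the largest rises and falls with groups that did not overlap. Genes whose 250 bases hold an annotated exon (Sema4d, Ntn4, Efnb2 and Plxnb2) are left out, and Sema6a, also among the largest rises, is not shown. Each sequence runs 5′ to 3′ on the strand of the gene and ends at the base before the start, and capitals mark the boxes. The first 3 belong to genes that were higher in dKO and the last 3 to genes that were lower.
Sema3d (chr5:12432874-12433123, + strand, 0 boxes): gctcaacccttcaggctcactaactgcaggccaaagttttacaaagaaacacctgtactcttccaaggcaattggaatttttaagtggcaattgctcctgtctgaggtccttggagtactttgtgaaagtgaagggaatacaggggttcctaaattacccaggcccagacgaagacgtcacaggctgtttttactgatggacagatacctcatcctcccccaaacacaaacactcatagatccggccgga
Sema3g (chr14:30939558-30939807, + strand, 1 box): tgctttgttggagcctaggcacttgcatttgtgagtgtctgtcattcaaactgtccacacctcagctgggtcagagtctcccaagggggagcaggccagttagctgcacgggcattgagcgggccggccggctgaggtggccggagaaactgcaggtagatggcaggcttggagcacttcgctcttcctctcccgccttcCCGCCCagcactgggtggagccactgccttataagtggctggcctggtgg
Ntn1 (chr11:68278021-68278270, - strand, 0 boxes): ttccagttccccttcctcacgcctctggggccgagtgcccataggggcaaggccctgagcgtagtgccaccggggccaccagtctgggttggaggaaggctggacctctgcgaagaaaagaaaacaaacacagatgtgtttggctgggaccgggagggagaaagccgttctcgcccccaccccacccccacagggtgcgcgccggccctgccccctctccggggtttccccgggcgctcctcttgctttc
Plxna3 (chrX:73372422-73372671, + strand, 1 box): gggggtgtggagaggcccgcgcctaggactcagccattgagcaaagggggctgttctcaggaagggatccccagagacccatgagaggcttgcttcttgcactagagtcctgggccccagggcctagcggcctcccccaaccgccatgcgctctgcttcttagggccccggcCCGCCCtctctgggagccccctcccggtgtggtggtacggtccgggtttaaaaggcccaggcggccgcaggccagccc
Ephb2 (chr4:136563352-136563601, - strand, 0 boxes): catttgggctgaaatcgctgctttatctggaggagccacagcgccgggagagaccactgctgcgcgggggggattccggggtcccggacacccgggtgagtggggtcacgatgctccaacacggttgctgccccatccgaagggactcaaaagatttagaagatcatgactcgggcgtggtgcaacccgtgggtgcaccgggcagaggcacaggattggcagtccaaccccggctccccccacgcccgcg
Slit2 (chr5:48140230-48140479, + strand, 3 boxes): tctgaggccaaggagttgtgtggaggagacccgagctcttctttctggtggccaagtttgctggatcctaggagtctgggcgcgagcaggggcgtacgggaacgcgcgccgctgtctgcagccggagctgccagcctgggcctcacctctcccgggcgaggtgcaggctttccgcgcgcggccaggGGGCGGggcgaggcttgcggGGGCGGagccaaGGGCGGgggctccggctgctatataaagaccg
The promoter of Sema3d, which had the largest rise of the shown genes, held no box, and that of Slit2, which was lower, held 3 close together near the start. Ntn1 and Ephb2, which were called in opposite directions, had no box in this window. No match says only that these letters are not in this window.

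Secreted class 3 semaphorins, ligands that mostly repel sprouts and cells, were called higher for 4 of 7 genes and lower for none. Sema3d, a ligand expressed in the developing heart and vessels (chr5:12433124-12638929), ranged from 2.29 to 4.19 FPKM in CTR (median 3.25) and from 8.04 to 13.9 FPKM in dKO libraries (median 11.3). All 6 dKO libraries lay above all CTR libraries. Its log2 fold change was 1.51 ± 0.14 (SE), with an adjusted p of 3.45e-06. Sema3g, a semaphorin known from arterial endothelium that signals through Nrp2 (chr14:30939808-30952309), ranged from 5.94 to 8.70 FPKM in CTR (median 6.94) and from 11.4 to 18.1 FPKM in dKO libraries (median 13.2). Again no library of one group reached the other group, and the log2 fold change was 0.86 ± 0.12 with an adjusted p of 6.59e-05. Sema3b, described as a tumour suppressor, ranged from 1.26 to 2.62 FPKM in CTR (median 2.26) and from 2.99 to 4.28 FPKM in dKO libraries (median 3.45), with an adjusted p of 0.00177. Sema3f, a Nrp2 ligand that acts against lymphatic and blood vessel growth, averaged 9.92 ± 2.63 and 13.7 ± 2.81 FPKM, with an adjusted p of 0.0316. The groups overlapped for Sema3f, and its call was lost when CTR replicate 1, 2 or 6 or dKO replicate 4, 5 or 6 was left out (adjusted p 0.0506 to 0.0692).

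The other 3 class 3 genes did not pass the test. Sema3a, the founding collapsin and a Nrp1 ligand, averaged 5.16 ± 2.96 FPKM in CTR and 3.86 ± 1.02 in dKO libraries, with CTR replicate 1 at 10.6 FPKM. Sema3c, which acts through Plxnd1 and neuropilins in the outflow tract, had medians of 4.32 FPKM in CTR and 3.77 FPKM in dKO libraries. For Sema3c, 4 dKO libraries were under the lowest CTR library, while dKO replicate 1 was the highest of all 12 at 5.76 FPKM, and without that library the gene was called lower (adjusted p 0.0269). Sema3e, the ligand that binds Plxnd1 without a neuropilin, averaged 3.68 ± 1.19 and 2.93 ± 1.10 FPKM. The 95% intervals of their log2 fold changes ran from -0.79 to 0.29 for Sema3a, from -0.33 to 0.11 for Sema3c and from -0.67 to 0.14 for Sema3e. Sema3d, Sema3a and Sema3e are neighbours on chromosome 5, with 536.4 kb between Sema3d and Sema3a and 421.7 kb between Sema3a and Sema3e.

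Membrane semaphorins (classes 4 to 7) moved in both directions, with 3 of 9 tested genes called higher and 2 lower. Sema4d, a ligand of Plxnb1 and Plxnb2 that is known from lymphocytes and macrophages (chr13:51836318-51947922), ranged from 0.395 to 0.951 FPKM in CTR (median 0.579) and from 3.07 to 6.80 FPKM in dKO libraries (median 3.49). The mean was 6.17 times higher in dKO libraries, the largest ratio of means among the 48 tested genes, and dKO replicate 3 stood above the others, which ended at 3.66 FPKM. The log2 fold change was 1.57 ± 0.15 with an adjusted p of 5.58e-06. Sema4d was tested only because all 6 dKO libraries passed 1 FPKM, so a call in the other direction was not possible for a gene at these CTR levels. Exons of Secisbp2 on the opposite strand cover 13.7% of the exon bases of Sema4d, and Secisbp2 itself averaged 5.28 ± 0.341 FPKM in CTR and 4.73 ± 0.483 in dKO libraries. The use of strand in counting is not stated.

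Sema6a and Sema6b, ligands of class A plexins, both rose, with log2 fold changes of 0.63 ± 0.10 and 0.63 ± 0.08 and adjusted p of 0.000192 and 4.7e-05. Sema6a averaged 2.31 ± 0.377 FPKM in CTR and 4.10 ± 0.587 in dKO libraries. Sema6b averaged 5.13 ± 0.590 and 8.44 ± 0.816 FPKM. Neither gene had overlapping groups. Sema5a, which is described as a pro-angiogenic ligand of Plxnb3 (chr15:32244919-32696487), ranged from 5.20 to 14.6 FPKM in CTR (median 10.9) and from 2.29 to 5.25 FPKM in dKO libraries (median 4.57). Its log2 fold change of -1.14 ± 0.21 was the largest fall of the 48 genes on this scale, with an adjusted p of 0.000648, and the groups overlapped only because CTR replicate 1 was at 5.20 FPKM. Sema4b, a class 4 ligand, averaged 6.56 ± 0.773 and 5.30 ± 0.402 FPKM, with an adjusted p of 0.0129 that became 0.0752 with median-of-ratios scaling.

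Sema7a, a GPI-anchored semaphorin that binds integrins and Plxnc1, was the most abundant guidance gene in CTR libraries at 52.6 ± 10.7 FPKM, and stood at 65.1 ± 12.8 FPKM in dKO libraries (adjusted p 0.0992, interval of the log2 fold change -0.02 to 0.62). It was called higher with median-of-ratios scaling (0.0417), with the replicate block (0.0287), without CTR replicate 4 (0.0348) and without dKO replicate 2 (0.0365). Sema4c averaged 8.93 ± 1.77 and 7.61 ± 1.18 FPKM, Sema6d averaged 3.10 ± 0.555 and 3.01 ± 0.483 FPKM, and Sema4g averaged 0.949 ± 0.230 and 1.14 ± 0.247 FPKM. None of these passed the test. Exons of Mrpl43 on the opposite strand cover 12.7% of the exon bases of Sema4g, and Mrpl43 averaged 20.7 ± 1.36 and 30.0 ± 3.27 FPKM (adjusted p 0.000116).

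**Figure D2:**
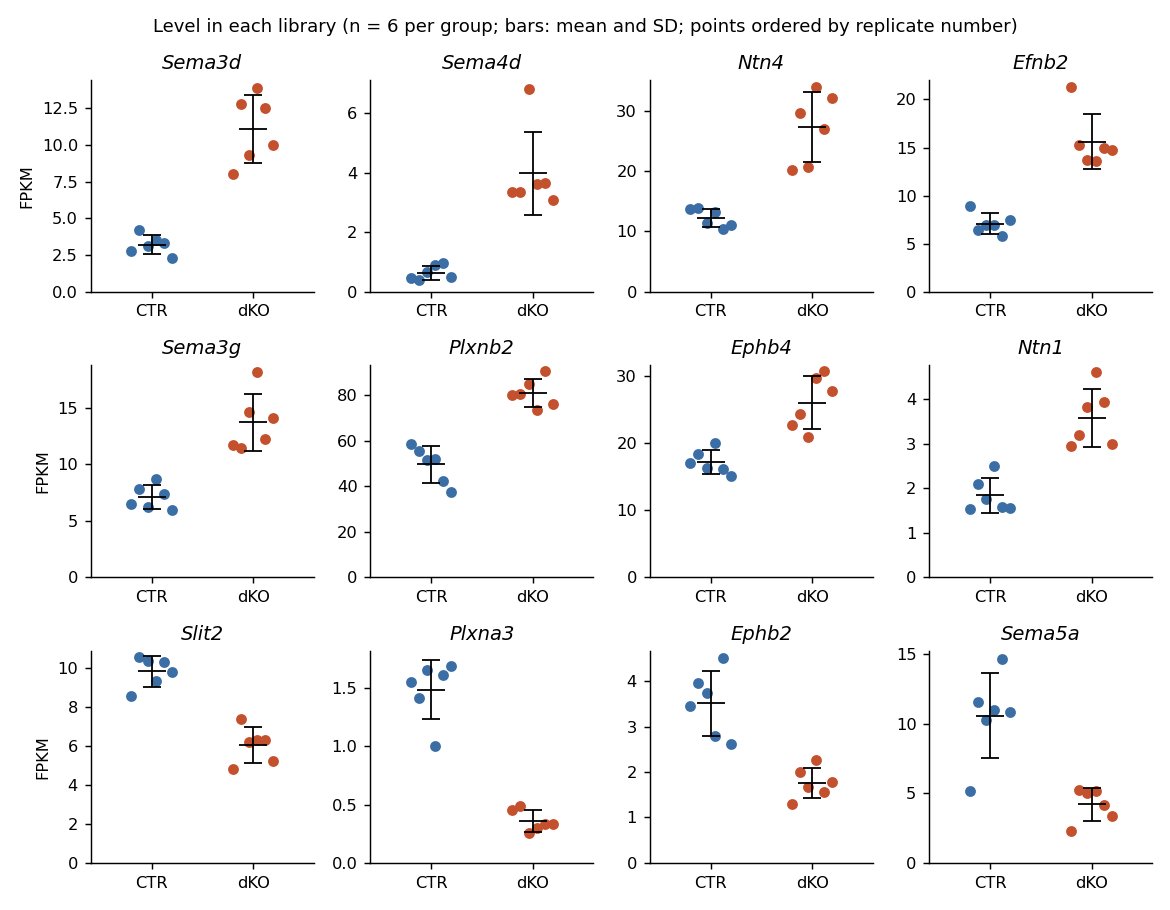
FPKM of 12 guidance genes in each of the 6 CTR and 6 dKO libraries, with the mean and SD; each panel has its own axis from 0. The groups are apart in every panel except that of Sema5a, where the lowest CTR library (5.20 FPKM) lies among the dKO libraries, and 1 dKO library is far above the others for Sema4d (6.80 FPKM) and for Efnb2 (21.3 FPKM).

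Plexins, the signalling receptors of semaphorins, were called higher for 3 of 8 tested genes and lower for 2. Plxnb2 (chr15:89039749-89065211), a receptor of Sema4d and other class 4 semaphorins, ranged from 37.7 to 58.8 FPKM in CTR (median 51.7) and from 73.5 to 90.5 FPKM in dKO libraries (median 80.4). It was the most abundant guidance gene in dKO libraries, its groups did not overlap, and its log2 fold change was 0.71 ± 0.10 with an adjusted p of 0.000114. Plxnd1, the vascular plexin that binds Sema3e, averaged 40.3 ± 8.06 FPKM in CTR and 52.9 ± 7.09 in dKO libraries (adjusted p 0.0178). Only dKO replicate 5, at 66.5 FPKM, lay above the highest CTR library. Plxna1, a partner of Nrp1 in class 3 signalling, averaged 27.1 ± 2.35 and 34.0 ± 3.62 FPKM, with an adjusted p of 0.00545 and 4 of 6 dKO libraries above all CTR libraries.

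Plxna3 (chrX:73372672-73388295), another partner of neuropilins, ranged from 1.00 to 1.69 FPKM in CTR (median 1.58) and from 0.253 to 0.489 FPKM in dKO libraries (median 0.335). No dKO library reached the lowest CTR library, and the CTR mean was 4.12 times the dKO mean. The log2 fold change was -0.87 ± 0.09 and the adjusted p 7.6e-06; on recovered fragments (limma-voom), where 1 FPKM is not added to the level, it was -2.05. This gene passed the filter only through its 6 CTR libraries. Plxnc1, the receptor of Sema7a, averaged 6.80 ± 3.06 FPKM in CTR and 3.09 ± 1.40 in dKO libraries (adjusted p 0.0204), with wide overlap. Plxna2 averaged 4.63 ± 1.29 and 5.39 ± 1.24 FPKM, Plxna4 averaged 1.11 ± 0.206 and 1.30 ± 0.212 FPKM, and Plxnb1 averaged 1.61 ± 0.251 and 1.40 ± 0.226 FPKM; these did not pass the test.

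Neither neuropilin was called (limma), and neither passed an unadjusted p of 0.05 (0.644 for Nrp1 and 0.0614 for Nrp2). Nrp1, the co-receptor of Sema3a and of VEGF-A, ranged from 12.4 to 41.3 FPKM in CTR (median 22.2) and from 11.5 to 31.8 FPKM in dKO libraries (median 19.6). Nrp2, known from venous and lymphatic endothelium, ranged from 17.1 to 32.4 FPKM in CTR (median 25.5) and from 25.3 to 38.2 FPKM in dKO libraries (median 29.0). The spread within CTR ran in opposite directions for the neuropilins, with Nrp1 highest and Nrp2 lowest in replicate 4 and the reverse in replicate 6. Among CTR libraries the summed smooth muscle and pericyte markers were lowest in replicate 4 (496.9 FPKM) and highest in replicate 6 (1423 FPKM). Most of this sum was Acta2 (409.0 and 1328 FPKM). Myh11, Tagln, Cnn1 and Cspg4 were also higher in replicate 6, but Pdgfrb (78.7 and 69.8 FPKM) and Rgs5 (1.65 and 0.439 FPKM) were higher in replicate 4. Of the CTR libraries, replicate 4 had the highest endothelial (254.2 FPKM), macrophage (1290), lymphatic (162.2) and lung epithelial (499.9) sums. The part of these markers in the spread of the neuropilins was not tested. The 95% interval of the log2 fold change ran from -0.76 to 0.49 for Nrp1 and from -0.01 to 0.55 for Nrp2. With median-of-ratios scaling Nrp2 was called higher (log2 fold change 0.36, adjusted p 0.0375), as it was without CTR replicate 6 (0.34, adjusted p 0.0362).

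Ephrins, the membrane-bound ligands of Eph receptors, were called higher for 4 of 6 tested genes and lower for none. Efnb2 (chr8:8667226-8711249), the arterial ephrin that is needed for vessel sprouting, ranged from 5.81 to 8.96 FPKM in CTR (median 6.96) and from 13.6 to 21.3 FPKM in dKO libraries (median 14.9). The groups did not overlap, with dKO replicate 1 above the remaining 5 dKO libraries, which ended at 15.3 FPKM. Its log2 fold change was 1.03 ± 0.11, with an adjusted p of 1.34e-05. Efna1, an endothelial ephrin induced by inflammatory cytokines, averaged 10.4 ± 2.25 FPKM in CTR and 15.2 ± 1.75 in dKO libraries (adjusted p 0.00304). Efna5, known from retinal map formation, averaged 2.92 ± 0.313 and 4.43 ± 0.737 FPKM (adjusted p 0.00182). Efna4 averaged 1.28 ± 0.388 and 1.84 ± 0.381 FPKM with an adjusted p of 0.0479, next to the threshold, and its call was lost in 9 of 12 fits without 1 library (all but CTR replicates 1 and 4 and dKO replicate 3; adjusted p 0.0502 to 0.101). Efnb1, a ligand of EphB receptors, averaged 14.5 ± 2.25 and 17.4 ± 2.32 FPKM (adjusted p 0.0718). It was called higher with median-of-ratios scaling (0.0174), with the replicate block (0.0417), without CTR replicate 4 (0.028) and without dKO replicate 3 (0.0488). Efna2 averaged 2.21 ± 0.588 and 1.71 ± 0.518 FPKM and was not called.

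Eph receptors, the tyrosine kinases that bind ephrins, went in both directions, 2 of 6 tested genes higher and 3 lower. Ephb4 (chr5:137348274-137376931), the venous receptor of Efnb2, averaged 17.2 ± 1.76 FPKM in CTR (median 16.7) and 26.1 ± 4.01 FPKM in dKO libraries (median 26.1), without overlap. Its log2 fold change was 0.57 ± 0.10 and its adjusted p 0.000472. Epha2, a receptor of Efna1 on endothelial and epithelial cells, was between 6.77 and 8.13 FPKM in all CTR libraries and between 8.97 and 20.3 FPKM in dKO libraries, with dKO replicate 1 the highest (adjusted p 0.00553). Ephb2 (chr4:136374850-136563351), a receptor of B ephrins with roles in crypts, synapses and vessels, ranged from 2.61 to 4.51 FPKM in CTR (median 3.59) and from 1.29 to 2.25 FPKM in dKO libraries (median 1.72). The groups did not overlap, and the log2 fold change was -0.70 ± 0.12 with an adjusted p of 0.00027. Ephb3, which acts with Ephb2 in many tissues, averaged 7.92 ± 0.969 and 5.52 ± 1.03 FPKM (adjusted p 0.00354). The B receptors thus included 1 that was higher and 2 that were lower.

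Epha1, an epithelial Eph receptor, averaged 2.46 ± 1.32 FPKM in CTR and 0.956 ± 0.167 in dKO libraries (adjusted p 0.00733). Exons of Zyx on the opposite strand cover 36.9% of its exon bases, and Zyx averaged 96.7 ± 15.1 FPKM in CTR and 52.6 ± 7.90 in dKO libraries (log2 fold change -0.86 ± 0.12, adjusted p 7.53e-05), so the fragments of the pair cannot be told apart here. Epha3, a receptor of A ephrins in mesenchyme, averaged 10.9 ± 4.84 and 8.25 ± 3.06 FPKM and was not called.

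Netrins were called higher for both tested genes. Ntn4 (chr10:93476543-93583069), a laminin-like netrin of vascular basement membranes, ranged from 10.3 to 13.8 FPKM in CTR (median 12.3) and from 20.1 to 34.0 FPKM in dKO libraries (median 28.4). All dKO libraries lay above all CTR libraries, and the log2 fold change was 1.07 ± 0.13 with an adjusted p of 3.44e-05. Ntn1 (chr11:68100190-68291662), the classical netrin, ranged from 1.54 to 2.49 FPKM in CTR (median 1.67) and from 2.95 to 4.60 FPKM in dKO libraries (median 3.51). Its log2 fold change was 0.69 ± 0.11 with an adjusted p of 0.000211, again without overlap. Of the netrin receptors, Unc5b, the repulsive receptor of endothelial tip cells, averaged 13.3 ± 4.41 FPKM in CTR and 16.7 ± 3.29 in dKO libraries and was not called (adjusted p 0.155, interval of the log2 fold change -0.08 to 0.79). Unc5c averaged 2.02 ± 0.570 and 1.99 ± 0.355 FPKM and was not called. Unc5a fell from 2.42 ± 0.276 to 1.82 ± 0.315 FPKM (adjusted p 0.0148), a call that was lost with median-of-ratios scaling (0.0576).

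Slit2 (chr5:48140480-48465075), a secreted ligand of Robo1 and Robo2, ranged from 8.55 to 10.6 FPKM in CTR (median 10.1) and from 4.84 to 7.41 FPKM in dKO libraries (median 6.26). The groups did not overlap, and the log2 fold change was -0.63 ± 0.09 with an adjusted p of 8.83e-05. Slit3, the most abundant Slit, averaged 49.2 ± 7.40 and 42.8 ± 9.18 FPKM, and was not called (adjusted p 0.244, interval of the log2 fold change -0.54 to 0.11). The Robo receptors were called higher for 3 of 3 tested genes, each with overlap between the groups. Robo2 averaged 1.26 ± 0.395 and 2.48 ± 0.484 FPKM (adjusted p 0.00145), Robo1 averaged 10.5 ± 1.17 and 14.0 ± 1.75 FPKM (0.00364), and Robo4, the endothelial Robo, averaged 7.01 ± 1.26 and 9.22 ± 1.07 FPKM (0.0148). Slit2 and Robo1, a ligand and its receptor, were thus called in opposite directions.

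**Figure D3:**
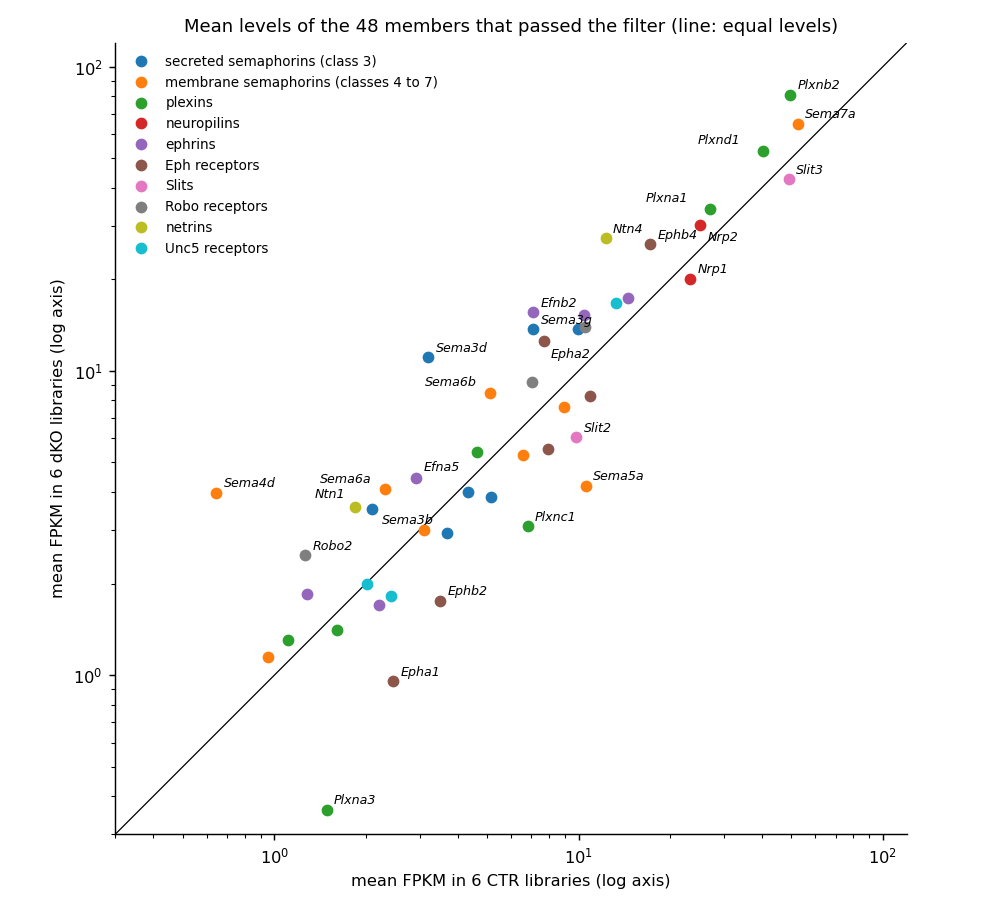
Mean FPKM of the 48 tested genes in dKO libraries against CTR libraries on log axes, coloured by family; the line marks equal levels. Sema7a, Plxnb2, Slit3 and Plxnd1 have the highest levels (above 40 FPKM in both groups), and Sema4d (0.644 and 3.97 FPKM) and Plxna3 (1.49 and 0.361 FPKM) lie farthest from the line.

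By level, Sema7a (52.6 ± 10.7 FPKM), Plxnb2 (49.7 ± 8.05) and Slit3 (49.2 ± 7.40) led in CTR libraries and did not differ beyond their spread, followed by Plxnd1 (40.3 ± 8.06), Plxna1 (27.1 ± 2.35), Nrp2 (25.1 ± 4.94) and Nrp1 (23.3 ± 11.1). In dKO libraries the order began with Plxnb2 (81.0 ± 6.14), Sema7a (65.1 ± 12.8), Plxnd1 (52.9 ± 7.09) and Slit3 (42.8 ± 9.18). The 34 ligand genes together summed to 198.1 to 272.8 FPKM in CTR and 264.9 to 349.7 FPKM in dKO libraries, and the 32 receptor genes to 230.8 to 313.9 and 304.0 to 377.4 FPKM. Ligands were called higher for 13 and lower for 3 of 26 tested genes, and receptors higher for 8 and lower for 6 of 22. Of all genes tested, 20.4% were called higher and 32.6% lower.

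A ratio of genes within a library does not depend on the scaling between libraries. Of 7 pairs examined, only the ratio of Slit3 to Slit2 did not overlap between the groups, with log2 ratios of 1.93 to 2.48 in CTR and 2.50 to 3.04 in dKO libraries. The log2 ratio of Efnb2 to Ephb4 averaged -1.28 ± 0.26 in CTR and -0.75 ± 0.38 in dKO libraries, and overlapped. The log2 ratio of Sema3f to Sema3c averaged 1.16 ± 0.35 and 1.78 ± 0.54, and that of Nrp2 to Nrp1 averaged 0.22 ± 0.97 and 0.65 ± 0.54. The differences of the group means were 0.16 for Ntn4 to Ntn1 and -0.17 for Plxna2 to Plxnd1, and Robo4 to Robo1 averaged -0.60 ± 0.22 and -0.60 ± 0.23. These ratios are descriptions without a test.

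**Figure D4:**
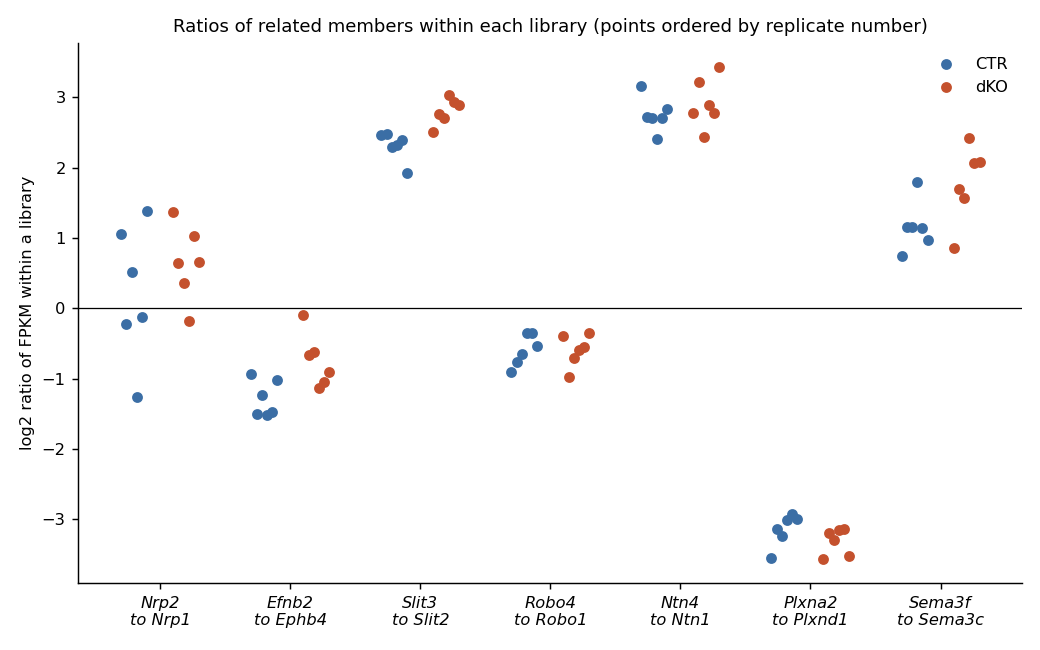
Log2 ratio of FPKM of 7 pairs of related genes within each library (6 CTR and 6 dKO). The points of Slit3 to Slit2 are apart by a narrow gap (highest CTR 2.48, lowest dKO 2.50), and all other pairs overlap.

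The remaining 18 genes missed the filter and were not tested. They are Efna3, Efnb3, Epha4, Epha5, Epha7, Epha8, Epha10, Ephb1, Ephb6, Ntn5, Plxnb3, Robo3, Sema4a, Sema4f, Sema5b, Sema6c, Slit1 and Unc5d. All dKO libraries lay above all CTR libraries for 4 of them, beside 2.05% of the 16222 genes of the table that missed the filter, many of which had fewer fragments. Ephb1, an EphB receptor, stood at 0.0168 to 0.0668 FPKM in CTR and 0.287 to 0.672 FPKM in dKO libraries, from 37 and 326 fragments in all. Robo3, which lies 553 bases from Robo4 on chromosome 9, stood at 0.0167 to 0.0683 FPKM in CTR and 0.114 to 0.367 FPKM in dKO libraries, from 23 and 162 fragments. Epha4, which binds both ephrin classes, averaged 0.534 ± 0.123 and 1.09 ± 0.241 FPKM, and Epha7 averaged 0.331 ± 0.093 and 0.602 ± 0.113 FPKM. At the other end, Epha10 had 1 fragment in all 12 libraries, Epha8 had 3, and Unc5d had 5 in each group. Sema4a and Ephb6 were just below the filter, each with 5 libraries at 1 FPKM or more. Plxna3 and Sema4d, each with 6, and Sema4g, with 7, were just above it.

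Genes that act with these families, such as co-receptors, cytoplasmic partners and the VEGF receptors that bind neuropilins, were counted from a list of 48. Of these, 39 were tested and 20 called (13 higher, 7 lower), a share of 51.3% beside the 53.1% of all genes tested. With median-of-ratios scaling 17 were called higher and 3 lower. The largest rises were those of Flt4 (VEGFR3), from 7.76 ± 1.37 to 17.6 ± 5.79 FPKM, of Vav3, an exchange factor downstream of Eph receptors, from 1.05 ± 0.174 to 3.02 ± 0.396 FPKM, of Fes, a kinase that binds plexins, from 2.38 ± 0.557 to 5.64 ± 1.44 FPKM, and of Kdr (VEGFR2), from 4.85 ± 0.829 to 9.41 ± 2.09 FPKM. Their log2 fold changes were 1.05, 0.97, 0.96 and 0.82, and no groups overlapped. The largest falls were those of Fyn, a kinase downstream of plexins and Eph receptors, from 20.2 ± 3.98 to 14.0 ± 0.574 FPKM, Grb10, an adaptor, from 86.4 ± 5.64 to 64.4 ± 13.5 FPKM, Enah, an actin regulator downstream of Robo, from 4.44 ± 1.12 to 3.06 ± 0.666 FPKM, and Srgap3, a protein of the Slit and Robo pathway, from 3.68 ± 1.11 to 2.50 ± 0.525 FPKM. The adjusted p of Srgap3 was 0.048, and the call was lost in 8 of 12 fits without 1 library (CTR replicates 1, 3, 5 and 6 and dKO replicates 2, 3, 4 and 6). The call of Enah was lost in 6 of these fits (CTR replicates 1, 3 and 6 and dKO replicates 3, 4 and 6). Both calls were also lost with median-of-ratios scaling (adjusted p 0.0981 for Srgap3 and 0.0602 for Enah) and without the filter (0.0979 and 0.0614), and that of Srgap3 with a pseudocount of 0.1 (0.0501). Srgap1 and Srgap2, of the same family, were both called higher (adjusted p 0.000244 and 0.0188), the call of Srgap2 being lost with TPM (0.0903).

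Markers of cell types differed between the groups as well, and in bulk RNA fewer cells of a type cannot be told apart from less RNA per cell. Fibroblast markers had the highest levels of these lists in CTR libraries, with summed FPKM of 2144 to 2707, whereas endothelial markers summed to 160.5 to 254.2, so RNA of genes that mark other cells was abundant in these cultures. In dKO libraries the fibroblast markers summed to 826.8 to 1657 FPKM and the endothelial markers to 290.4 to 390.6 FPKM. Of the endothelial markers, 9 of 10 were called higher, and of the fibroblast markers 4 of 6 tested lower and Dcn higher. Macrophage markers summed to 754.2 to 1290 FPKM in CTR and 1799 to 3792 FPKM in dKO libraries, with 6 of 7 tested called higher and Marco lower. Mesothelial markers summed to 21.4 to 30.6 and 58.1 to 134.7 FPKM, with 4 of 5 higher. Lymphatic markers were called higher for 3 of 5 tested genes, smooth muscle and pericyte markers for 2 of 6, and lung epithelial markers for 1 of 6, and the single neuron and Schwann cell marker that was tested was not called. Retina markers, listed because a protocol in the labels speaks of retinas, summed to at most 0.49 FPKM.

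**Figure D5:**
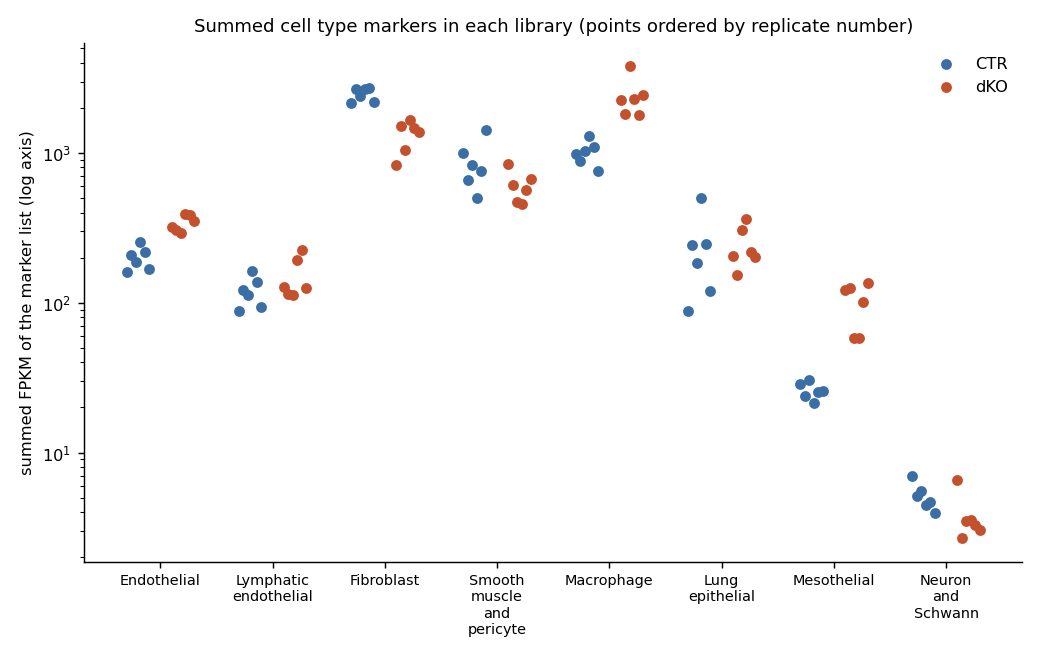
Summed FPKM of 8 lists of cell type markers in each library on a log axis (6 CTR and 6 dKO). Endothelial, macrophage and mesothelial sums are higher in every dKO than in every CTR library, and fibroblast sums are lower.

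Set against these sums within each library, the guidance genes differed from each other. The summed endothelial markers were 0.77 higher in dKO libraries on the log2 scale. Of the 21 guidance genes called higher, 8 rose by more than this sum, and for 2, Sema3d and Sema4d, the ratio to it did not overlap between the groups (differences of 1.01 and 1.87 on the log2 scale). The other 6 were Efnb2, Ntn4, Robo2, Ntn1, Sema3g and Sema6a, with ratio differences of 0.36, 0.36, 0.23, 0.19, 0.17 and 0.06. Cdh5 and Pecam1 make up much of this sum (dKO to CTR ratios of means 1.58 and 1.80). The single endothelial markers Icam2 (2.63) and Tie1 (2.46) rose by more than these 6 genes (at most 2.22, for Ntn4). Egfl7 (1.62), Tek (1.46), Esam (1.28) and Vwf (1.19, not called), like Cdh5, rose by less than each of the 6 (at least 1.78, for Sema6a). For Plxnd1 the ratio to the endothelial sum was below that of every CTR library in all dKO libraries (difference -0.37), although the gene itself was called higher. For genes called lower set against sums that rose, the direction of such a ratio follows from the choice of genes and is not given. The same holds for higher genes set against the fibroblast sum (difference -0.93 on the log2 scale). Most of the fibroblast sum came from Col1a1, Col1a2 and Col3a1 (CTR means of 1173, 597.5 and 544.2 FPKM), which were called lower. Fbln1 was called lower as well (log2 fold change -1.05), but Pdgfra was not called (-0.18) and Dcn was called higher (1.33). Of the 9 genes called lower, 5 had a lower ratio to the fibroblast sum in dKO libraries. For none of the 9 were all dKO libraries below all CTR libraries in this ratio, and for Sema4b all were above (difference 0.63).

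Against the summed macrophage markers, which were 1.23 higher on the log2 scale, Sema4d was the only gene of the 21 with a ratio above that of every CTR library in all dKO libraries (difference 1.42). For 1 gene, Plxna1, the ratio to this sum was below that of every CTR library in all dKO libraries (difference -0.90). Most of this sum came from Lyz2 (746.0 FPKM in CTR and 1868 in dKO libraries), and it includes Marco, which was called lower. Of the single macrophage markers, Itgam rose by a larger ratio of means than Sema4d (7.10 beside 6.17). Csf1r (4.68), Cd68 (3.99), Adgre1 (3.20), Lyz2 (2.50) and Mrc1 (2.36) rose by less. Itgam and Csf1r had low levels in CTR libraries (1.16 and 2.53 FPKM). Siglecf, which missed the filter, averaged 0.795 FPKM in CTR and 0.348 FPKM in dKO libraries. The level of Sema4d and the macrophage sum were both highest in dKO replicate 3. Sema3d also rose by more than the macrophage sum (0.56), with overlap. Against the summed mesothelial markers, which were 1.875 higher on the log2 scale, Sema4d was the 1 gene of the 21 with a higher ratio (0.77, with overlap). For 7 of the 21, the ratio to the mesothelial sum was below that of every CTR library in all dKO libraries. The part of these marker lists in the changes of the guidance genes was not tested. The ratios to marker sums were chosen after the values were seen and are descriptions without a test.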

How the data were processed

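RNA of cultured MLECs was sequenced in 12 libraries, 6 CTR and 6 dKO. The authors deposited 1 table of FPKM values for 28689 genes. The study names STAR and mm39, and the submitters' processing notes list Bowtie2 2.2.3, HISAT2 2.1.0, TopHat2, DESeq2 and mm39; the counting program, annotation and use of strand are not given in the sources used here. A protocol in the labels speaks of retinas, whereas the study describes lung cells. The columns named TAM were taken as dKO because the labels hold only 1 other group.

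Gene IDs were matched to GENCODE (GRCm39), and 27706 IDs matched. Whole fragments were recovered from the FPKM steps for all 28689 genes (tolerance 0.02). Genes that reached 1 FPKM in 6 or more libraries were tested with limma 3.58.1 (R 4.3.3) on log2(FPKM + 1), with p-values adjusted by Benjamini-Hochberg over 12467 genes; the steps were tested on simulated data. Members and lists were chosen with earlier results of these data known. The genes followed through the alternatives (where their filter kept them) were a vascular set of 25 members, the 8 largest rises and up to 8 largest falls among called members whose groups did not overlap (3 fell), the 4 largest rises and 4 largest falls among partner genes, and Sp1 and Sp3; the other members were named after their values were seen, so that each is accounted for. The fit by limma-voom without a filter, and the ratios to marker sums, were added after seeing the data. Promoters and exon overlaps were read with Python 3.11.15, and near copies were sought with BLAST 2.17.0. Stretches of at least 150 bases at 95% identity or more were found in transcripts of other genes for some members. Among them were Efnb2 (Gm45075, 14.0% of the transcript), Ntn4 (Gm67787, 8.85%) and Epha1 (Dym, 14.1%). The effect of such stretches on the levels was not tested. Alternatives were a pseudocount of 0.1, no filter, a filter of 5 FPKM, TPM, median-of-ratios scaling, a replicate block, limma-voom on recovered fragments, the exact permutation test and leaving out each library. Pairs of libraries of 1 group differed by more than counting noise (chi-square per degree of freedom 12.2 to 110).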

Additional observations from a re-analysis of the deposited data

Results flagged for a closer look

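In groups of 6 libraries, a library far from the other 5 (Dixon's test) was sought for 80 groups of values, where chance alone gives about 4 such cases, and 5 were found. Sema4d stood at 6.80 FPKM in dKO replicate 3 and at 3.07 to 3.66 FPKM in the other dKO libraries, and this library also had the highest summed macrophage markers (3792 FPKM). Efnb2 stood at 21.3 FPKM in dKO replicate 1, beside 13.6 to 15.3 FPKM in the others. Sema3c stood at 5.76 FPKM in the same library, beside 3.20 to 4.09 FPKM. Plxnd1 stood at 66.5 FPKM in dKO replicate 5, beside 47.1 to 53.0 FPKM. The plexin-binding kinase Fes stood at 3.44 FPKM in CTR replicate 4, beside 1.90 to 2.48 FPKM in the other CTR libraries.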

How the results depend on the processing

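The number of guidance genes called was 29 to 36 under all settings but 1, and 28 to 32 without 1 library. The fits without a filter gave the top of the first range. They tested all 66 genes instead of 48, so their counts have another base. With a filter of 5 FPKM, which left 28 of the guidance genes, the number called was 19. Of these, 10 were past 1.5-fold and 1 past a log2 fold change of 1.5. With the same filter, 12 of the 25 partner genes tested were called. Past a log2 fold change of 1.5 there were 2 genes (Sema3d and Sema4d), and 1 to 2 without 1 library (1 without CTR replicate 1 or 6 or dKO replicate 2, 3, 4 or 5). By limma-voom without a filter there were 6, which added Plxna3 as a fall (-2.05). The others added were Ephb1, Robo3 and Sema5b (3.08, 2.72 and 1.81), which missed the filter of the main fit. Past 1.5-fold there were 15 to 20 genes and among partner genes 16 to 21 calls without 1 library. Of 40 named genes, 30 kept direction and call in each setting that tested them; those under 5 FPKM, such as Sema4d and Plxna3, were not tested with the stricter filter. Sema6d, near 0, reversed with median-of-ratios scaling (log2 fold change 0.0403) and ranged from -0.0826 to 0.0186 without 1 library, and Nrp1 ranged from -0.283 to 0.0477. Calls were lost for Sema3f without a filter (adjusted p 0.0649), with TPM (0.0526) and by the exact permutation test (0.0636), and gained with median-of-ratios scaling for Nrp2 (0.0375), Sema7a (0.0417) and Efnb1 (0.0174). Of the 30 genes called, 4 lost the call in at least 1 limma fit: Sema3f, Efna4 (0.0574 to 0.101 with TPM, a pseudocount of 0.1, no filter and limma-voom with and without a filter), and with median-of-ratios scaling Sema4b (0.0752) and Unc5a (0.0576). The cause was not tested. With the replicate number as a block, 32 guidance genes were called, 17 of them past 1.5-fold, and 22 partner genes, with Sema7a (0.0287) and Efnb1 (0.0417) gained and Srgap3 lost (0.0525). Libraries with the same number correlated between -0.11 and 0.57, so the numbers were not taken as pairs. Of the 18 genes below the filter, some rest on few fragments (Epha10 on 1, Epha8 on 3), and others on many more (Epha4 on 440 in CTR and 898 in dKO libraries).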
